A study of Mus musculus with 6 samples.

Results

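Sarm1, Nmnat1, Nmnat2, Nmnat3, Nampt, Map3k12, Map3k13 and Stmn2 belong to the pathway that decides whether an injured axon survives. They were taken by gene symbol from the deposited table of normalised read counts, and all 8 were among its 17607 genes. The libraries came from auditory nerve dissected out of the cochlea of CBA/CaJ mice, 3 of them old (2.5 years) and 3 young (2 months). CBA/CaJ is an inbred strain used in hearing research, the labels name no engineered allele and no treatment, and the tissue from both cochleas of an animal went into 1 library. The comparison asks which transcripts differ in the nerve with age. Values are normalised read counts, that is, reads per gene divided by 1 size factor per library, given as mean ± SD with n = 3 per group.

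Axons stay intact as long as they hold enough NAD, the cofactor that NMNAT enzymes make from nicotinamide mononucleotide (NMN). NMNAT2 is a short-lived protein that has to be carried into the axon, and when its supply stops, NMN builds up, NAD drops, and SARM1, an NAD-cleaving enzyme, is switched on and destroys the axon. The kinases DLK (Map3k12) and LZK (Map3k13) sense axon damage, signal through JNK, and speed the loss of NMNAT2 and of stathmin-2 (Stmn2) from the axon. In the auditory nerve these axons are those of the spiral ganglion neurons, which are lost with age.

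The 250 bases ahead of the RefSeq gene start were available for 7 of the 8 genes (RefSeq, GRCm38.p6). They are printed for Sarm1 and Nmnat2, which fell in old nerves, and for Nmnat3, which rose, each stopping short of any exon of the gene in GENCODE. Capitals mark TGACG, the core of the cyclic AMP response element, and GGGCGG, the GC box, or their reverse complements CGTCA and CCGCCC.
Sarm1: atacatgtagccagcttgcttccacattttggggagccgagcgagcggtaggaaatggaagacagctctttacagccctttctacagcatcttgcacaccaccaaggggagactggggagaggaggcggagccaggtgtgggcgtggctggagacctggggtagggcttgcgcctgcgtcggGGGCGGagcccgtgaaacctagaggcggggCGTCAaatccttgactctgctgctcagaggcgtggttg
Nmnat2: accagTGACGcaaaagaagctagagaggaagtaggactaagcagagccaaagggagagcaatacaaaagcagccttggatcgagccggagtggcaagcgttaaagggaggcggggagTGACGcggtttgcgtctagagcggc
Nmnat3: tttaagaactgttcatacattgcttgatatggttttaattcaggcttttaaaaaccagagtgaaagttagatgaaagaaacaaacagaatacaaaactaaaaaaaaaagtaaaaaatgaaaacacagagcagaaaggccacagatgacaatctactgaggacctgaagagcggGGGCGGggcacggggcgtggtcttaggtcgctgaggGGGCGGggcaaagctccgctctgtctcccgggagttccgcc
The Sarm1 stretch lies at chr11:78497755-78498004 on the minus strand, the Nmnat2 stretch at chr1:152954851-152954992 on the plus strand and the Nmnat3 stretch at chr9:98296320-98296569 on the plus strand. TGACG, on either strand and with no overlap between the 2 motifs, stood in the 250 bases of 3 of the 7 genes (Nmnat2, Sarm1 and Nampt), against 17.8% of all 32851 RefSeq promoters of that length. GGGCGG stood in 5 of the 7, against 32.7% of all promoters. Other motifs were searched too. The whole cyclic AMP response element, TGACGTCA, stood in 0 of the 7, against 1.55% of all promoters. The AP-1 site TGANTCA stood in 0 (6.75% of all promoters) and the E-box CACGTG in 1 (6.02%). The matches describe letters and say nothing of which factor binds. Nmnat2 and Sarm1, which both hold TGACG, fell, and Nampt, which holds it too, rose.

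Of the 8 genes, 4 fell in old nerves (Sarm1, Map3k13, Nmnat2 and Map3k12), 2 rose (Nmnat3 and Nampt) and 2 did not pass the test (Nmnat1 and Stmn2). Across all 15882 genes tested 34.6% passed in either direction, 15.9% as rises and 18.7% as falls (2524 higher and 2969 lower, or 3356 higher and 2409 lower with upper-quartile scaling). In the 6 genes that passed, the 3 old libraries lay on one side of the 3 young libraries, which also held for 51.8% of all tested genes. Without both young 1 and old 2, Sarm1 and Nmnat3 passed and the other 4 did not, and 11.2% of all genes passed. EdgeR on recovered reads passed the same 6 (34.1% of all genes), as did the FDR in the authors' deposited table (34.8%). A log2 fold change is the old mean less the young mean of log2(value + 1), with its SE, and adjusted p-values come from limma with Benjamini-Hochberg adjustment over all tested genes.

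**Figure D1:**
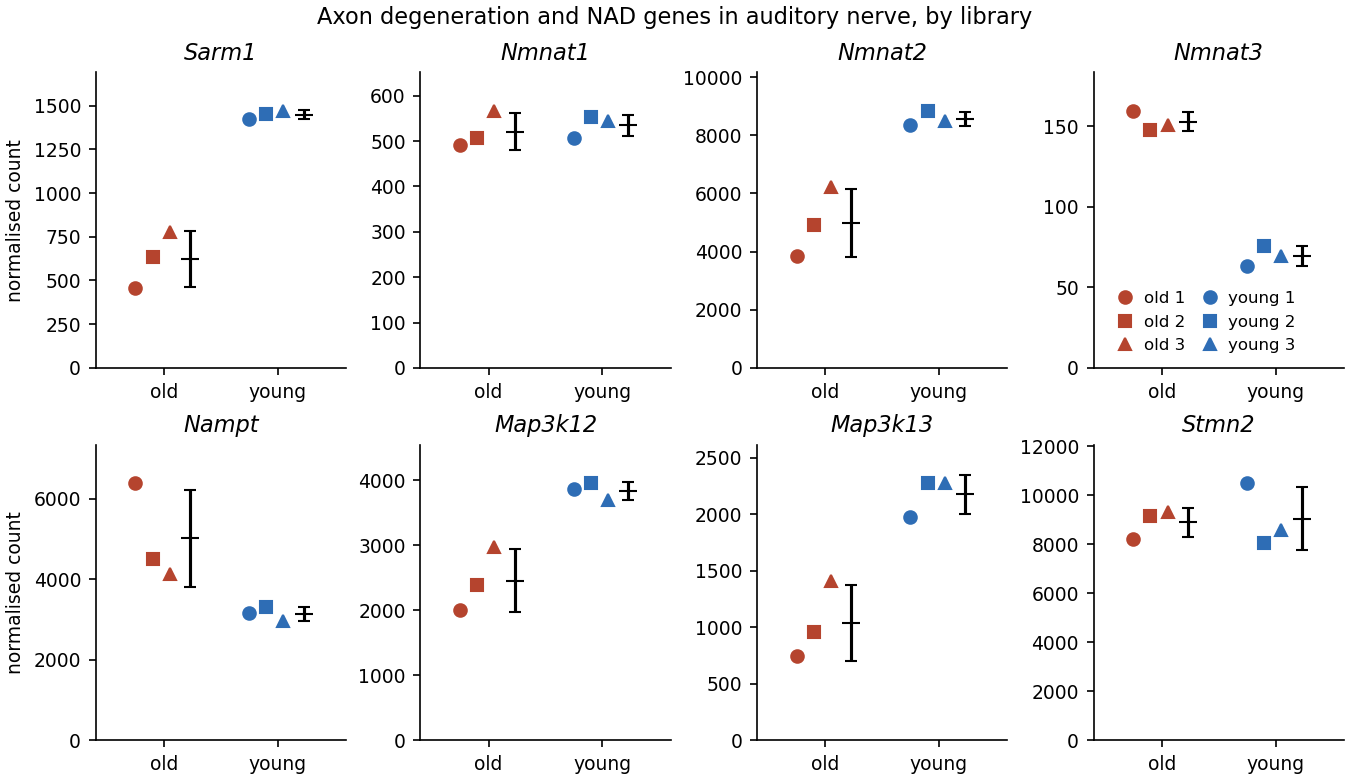
Normalised read count (y axis, from 0) of the 8 genes in each of the 3 old (red, left) and 3 young (blue, right) libraries, with symbols for the replicate number and black marks for mean and SD. Old libraries lie below all young ones for Sarm1, Nmnat2, Map3k12 and Map3k13, above them for Nmnat3 and Nampt, and among them for Nmnat1 and Stmn2.

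Sequencing depth was similar in all libraries, with 34587979 to 38835751 recovered reads in old and 35213213 to 40841478 in young nerves, so the members, at means from 69.4 upwards, rest on many reads. Young 1 and old 2 stood apart from the rest in some genes, as in Fos, at 536 in old 2 and 462 in young 1, against 138 to 307 in the other 4 libraries. Neuron and Schwann cell markers were abundant, as a nerve should hold, with Slc17a7, the vesicular glutamate transporter of these neurons, at 11920 ± 4454 in old and 24088 ± 2605 in young nerves. Of 24 neuron markers 10 fell and none rose, and their summed level was 383485 to 544853 in old and 605498 to 616710 in young libraries. Of 17 macrophage markers 15 rose and none fell, with sums of 19018 to 27986 in old and 7730 to 10484 in young libraries. Among 15 Schwann cell markers 1 rose and 7 fell, among 10 endothelial markers 2 fell, among 9 fibroblast markers 2 fell, among 12 bone markers 8 fell, and of 6 tested erythroid markers none passed. The shares called were 41.7% of neuron, 88.2% of macrophage, 53.3% of Schwann cell and 66.7% of bone markers. Those of endothelial and fibroblast markers were 20% and 22.2%. Across all tested genes 34.6% passed, 18.7% as falls. The part of cell composition in the differences below was not tested, and in bulk tissue fewer cells of a type and less RNA per cell cannot be told apart.

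Sarm1 encodes the NAD-cleaving executioner of axon degeneration and lies on chromosome 11 from 78472330 to 78497754 (mm10, minus strand). It stood at 457, 633 and 776 in old 1, 2 and 3, against 1423, 1454 and 1470 in young 1, 2 and 3. Every old library held well under the lowest young value, and the young libraries were nearly equal. The mean was 622 ± 160 in old and 1449 ± 24.1 in young nerves, a log2 fold change of -1.25 ± 0.18 (adjusted p = 0.00552, 95% interval -1.67 to -0.83). That change was in the lowest 1.54% of all tested genes, and it passed whichever library was dropped. The authors' deposited table gives a signed fold change of -2.33 with an FDR of 7.81e-09.

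Nmnat2 encodes the NMNAT enzyme of the axon and lies on chromosome 1 from 152955101 to 153119261 (plus strand). It stood at 3861, 4900 and 6207 in old 1, 2 and 3, against 8370, 8842 and 8501 in young 1, 2 and 3. The old libraries again lay below all young ones and differed more among themselves. Nmnat2 averaged 4989 ± 1175 in old and 8571 ± 244 in young nerves (log2 fold change -0.81 ± 0.16, adjusted p = 0.0103, 95% interval -1.18 to -0.44).

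Nmnat1 encodes the NMNAT enzyme of the nucleus, from 149467569 to 149485210 on chromosome 4 (minus strand). It stood at 491, 506 and 567 in old 1, 2 and 3, against 508, 552 and 544 in young 1, 2 and 3. The groups overlapped, with means of 521 ± 40.3 in old and 535 ± 23.8 in young nerves. The log2 fold change was -0.04 ± 0.10 (adjusted p = 0.783), and its 95% interval ran from -0.27 to 0.19.

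Nmnat3, usually described as the mitochondrial form, lies on chromosome 9 from 98296583 to 98411428 (plus strand) and was, per length, the least abundant of the 8 genes. It stood at 160, 148 and 151 in old 1, 2 and 3, against 63.0, 75.7 and 69.4 in young 1, 2 and 3. The 3 old values were close together and all above the young ones. Its mean was 153 ± 6.05 in old and 69.4 ± 6.35 in young nerves, 2.20-fold higher in old (log2 fold change 1.13 ± 0.16, adjusted p = 0.00547, 95% interval 0.75 to 1.51).

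Divided by transcript length (the longest protein-coding transcript in GENCODE M21), the 3 NMNAT genes can be set against each other. Nmnat2 made up 79.8% ± 3.15 of their summed level per kb in old and 88.8% ± 0.294 in young nerves. Nmnat1 made up 14.8% ± 1.91 in old and 9.65% ± 0.227 in young nerves, and Nmnat3 5.41% ± 1.24 in old and 1.53% ± 0.0950 in young nerves. The summed level itself was 1345 ± 267 per kb in old and 2086 ± 63.2 in young nerves. The groups did not overlap in any of these 4 quantities, and the exact two-sided permutation test gave p = 0.1 for each, the smallest that 3 against 3 libraries allow. The 4 are not separate results, since the shares depend on each other and Nmnat2 makes up most of the sum. Nmnat1 gained in share while its own level per kb was 196 ± 15.2 in old and 201 ± 8.94 in young nerves. Nmnat2 remained the most abundant NMNAT transcript in all 6 libraries.

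**Figure D2:**
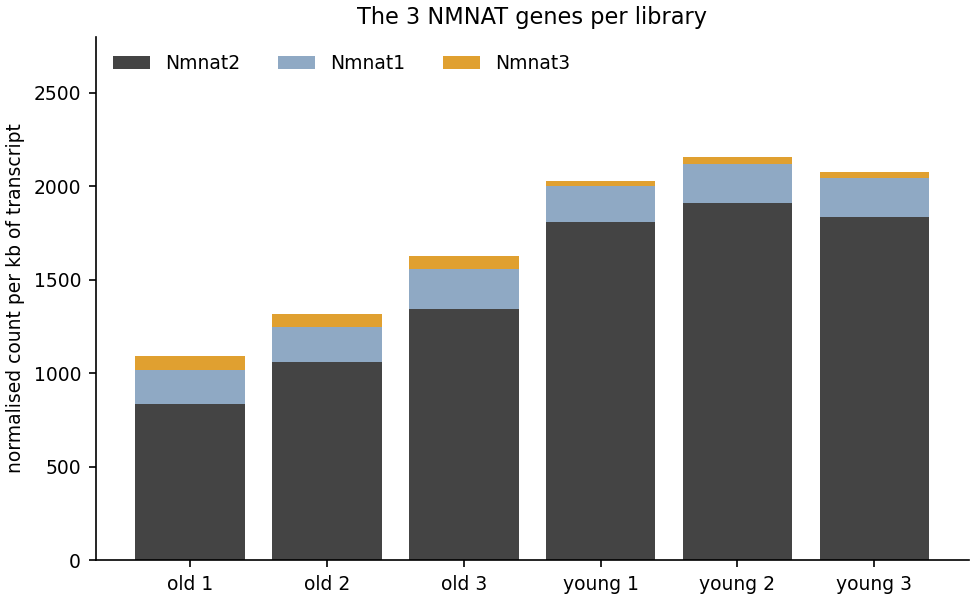
Normalised count per kb of transcript (y axis) of Nmnat2, Nmnat1 and Nmnat3, stacked for each of the 3 old (left) and 3 young (right) libraries. The stacks reach 1093 to 1625 in old and 2029 to 2154 in young nerves, and Nmnat3, at the top, is the thinnest layer in all 6.

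Nampt encodes the rate-limiting enzyme of the salvage route that makes NMN from nicotinamide, from 32820335 to 32853369 on chromosome 12 (plus strand). It stood at 6386, 4504 and 4138 in old 1, 2 and 3, against 3155, 3305 and 2954 in young 1, 2 and 3. All old libraries lay above the young ones, old 1 by the widest margin. The mean was 5010 ± 1206 in old and 3138 ± 176 in young nerves (log2 fold change 0.65 ± 0.16, adjusted p = 0.0191, 95% interval 0.28 to 1.02). The call did not hold without young 1, young 2 or young 3 (adjusted p = 0.0504, 0.0553 and 0.0674).

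Map3k12 encodes DLK, the kinase that starts the injury response of axons, and lies on chromosome 15 from 102497647 to 102517004 (minus strand). It stood at 2008, 2388 and 2968 in old 1, 2 and 3, against 3864, 3959 and 3693 in young 1, 2 and 3. It averaged 2455 ± 484 in old and 3839 ± 135 in young nerves, with no overlap (log2 fold change -0.66 ± 0.13, adjusted p = 0.0115). In GENCODE 1573 of its 8989 exonic bases also belong to Pcbp2 on the other strand. No source used here says whether the libraries kept strand, so reads there cannot be assigned to either gene. Pcbp2 stood at 7907 ± 291 in old and 8468 ± 401 in young nerves (log2 fold change -0.10, adjusted p = 0.286).

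Map3k13 encodes LZK, the close relative of DLK, and lies on chromosome 16 from 21891969 to 21931877 (plus strand). It stood at 747, 958 and 1409 in old 1, 2 and 3, against 1976, 2277 and 2276 in young 1, 2 and 3. All old libraries lay below all young ones, and old 3 was nearest to them. Map3k13 averaged 1038 ± 338 in old and 2176 ± 173 in young nerves (log2 fold change -1.11 ± 0.21, adjusted p = 0.00972, 95% interval -1.61 to -0.61). It shares 227 of 8714 exonic bases with the noncoding RNA 1300002E11Rik on the same strand, which was higher in old nerves (log2 fold change 0.34 ± 0.07, adjusted p = 0.0139).

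Stmn2 encodes stathmin-2, a tubulin-binding protein of axons that is lost early after injury, and lies on chromosome 3 from 8509527 to 8561604 (plus strand). It stood at 8220, 9164 and 9310 in old 1, 2 and 3, against 10503, 8067 and 8588 in young 1, 2 and 3. The groups overlapped, with the highest and the lowest value both in young libraries. The mean was 8898 ± 591 in old and 9053 ± 1283 in young nerves (log2 fold change -0.02 ± 0.11, adjusted p = 0.916, 95% interval -0.28 to 0.24).

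**Figure D3:**
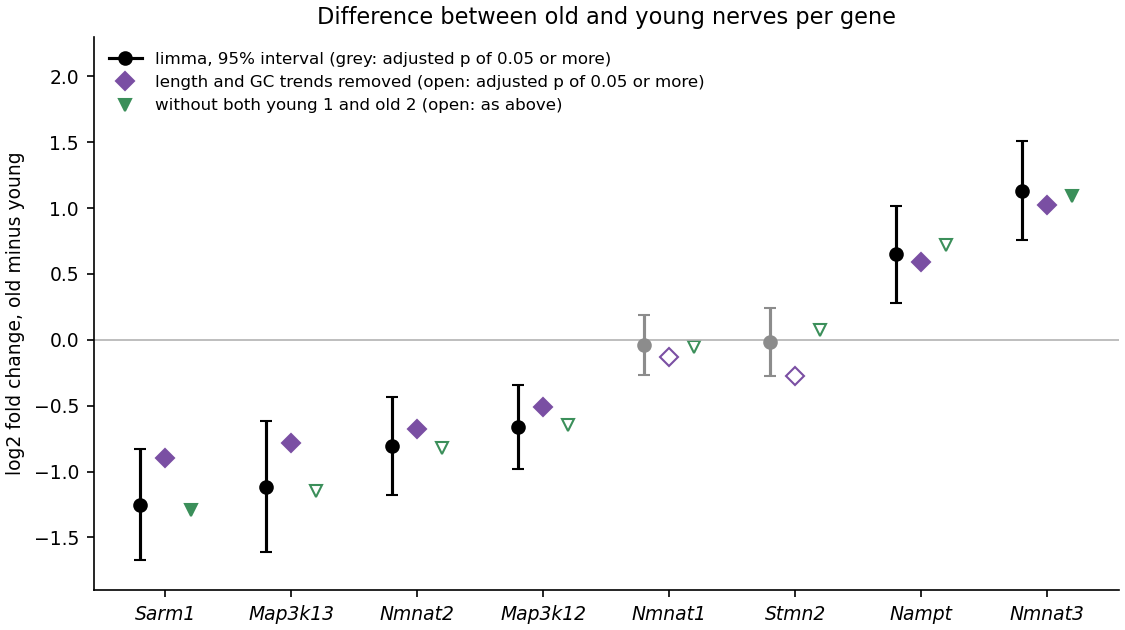
Log2 fold change, old minus young (y axis), of the 8 genes ordered by size, with the 95% interval from limma (black, or grey where the adjusted p was 0.05 or more), the value with length and GC trends removed (purple) and the value without both young 1 and old 2 (green). The 4 falls lie between -1.25 and -0.66 and the 2 rises at 0.65 and 1.13, while the intervals of Nmnat1 and Stmn2 span 0.

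Within the old group the same library was the most changed in each of the 6 genes that passed. Old 1 was lowest in Sarm1, Nmnat2, Map3k12 and Map3k13 and highest in Nmnat3 and Nampt. Old 3 was nearest to the young libraries in 5 of these 6, the exception being Nmnat3, where it was old 2. The summed neuron markers had the same order, with 383485 in old 1, 443968 in old 2 and 544853 in old 3. Their part in the order was not tested.

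Per kb of transcript Stmn2 was the most abundant of the 8 genes in both groups, at 4292 ± 285 in old and 4367 ± 619 in young nerves. In old nerves it was followed by Nampt (1107 ± 266), Nmnat2 (1079 ± 254), Map3k12 (473 ± 93.3), Nmnat1 (196 ± 15.2), Sarm1 (128 ± 32.8), Map3k13 (121 ± 39.4) and Nmnat3 (70.6 ± 2.79). The ranges of Nampt and Nmnat2 overlapped there, as did those of Sarm1 and Map3k13, so their order is not fixed. In young nerves the order after Stmn2 was Nmnat2 (1853 ± 52.7), Map3k12 (740 ± 26.0), Nampt (693 ± 38.8), Sarm1 (298 ± 4.96), Map3k13 (254 ± 20.2), Nmnat1 (201 ± 8.94) and Nmnat3 (32.0 ± 2.93), with overlap between Map3k12 and Nampt. Nampt thus stood above Map3k12 in old nerves and beside it in young nerves.

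Set against the mean log2 level of the 24 neuron markers in the same library, the 8 genes separated into several kinds. The marker mean itself was 12.50 ± 0.24 in old and 13.10 ± 0.11 in young nerves on the log2 scale, a difference of -0.60. Relative to it Sarm1 was at -3.25 ± 0.15 in old and -2.60 ± 0.13 in young nerves, still lower in all old libraries by 0.65. Nmnat2 was at -0.24 ± 0.12 in old and -0.03 ± 0.15 in young nerves, and the groups overlapped (p = 0.2, exact two-sided permutation test). Map3k12 was at -1.26 ± 0.08 in old and -1.19 ± 0.12 in young nerves (exact permutation p = 0.6), so it changed nearly in step with the marker mean. Map3k13 was at -2.53 ± 0.24 in old and -2.01 ± 0.23 in young nerves, with overlap (exact permutation p = 0.2). Stmn2, Nmnat1, Nampt and Nmnat3 were higher in old nerves relative to the markers, by 0.58, 0.56, 1.25 and 1.73. For these 4 and for Sarm1 the groups did not overlap and the exact permutation p was 0.1, the smallest possible, before any adjustment over the 8 tests. The marker mean fell by 0.60, so a gene with an unchanged level stands about that much higher against it. The differences of Stmn2 and Nmnat1 were about that size, so they show no rise of these genes themselves. How many of all genes did not overlap on this scale was not counted. The marker list is an average over 10 genes that fell, from Syn1 (log2 fold change -1.47) to Nefl (-0.50), and 14 that did not pass, so it is a yardstick and not a count of neurons. One of the 14, Syt1, stood at 154 to 1015 in old libraries and at 6020, 290 and 570 in young 1, 2 and 3 (log2 fold change -1.59, adjusted p = 0.318).

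**Figure D4:**
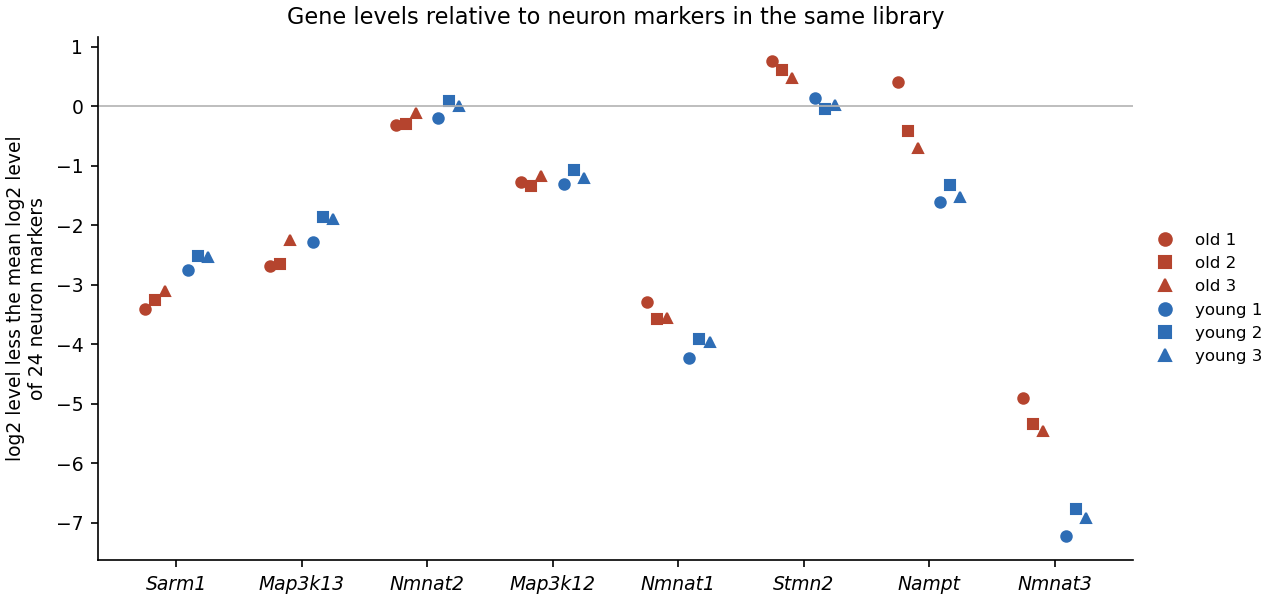
Log2(value + 1) of each gene less the mean log2(value + 1) of 24 neuron markers in the same library (y axis), old in red and young in blue, with symbols for the replicate number. Old libraries lie below the young ones for Sarm1, among them for Map3k13, Nmnat2 and Map3k12, and above them for Nmnat1, Stmn2, Nampt and Nmnat3.

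The balance between the transcripts of the protective enzyme and the executioner was read as the log2 ratio of Nmnat2 to Sarm1. Protein levels and enzyme activity were not measured. It was 3.08, 2.95 and 2.999 in old 1, 2 and 3, against 2.56, 2.60 and 2.53 in young 1, 2 and 3. Sarm1 thus fell further than Nmnat2, and the ratio was higher in every old library, by 0.45 on average (3.01 ± 0.06 in old, 2.56 ± 0.04 in young, exact permutation p = 0.1). After removal of length and GC trends the gap was narrower, with log2 fold changes of -0.90 for Sarm1 and -0.67 for Nmnat2. The ratio of Stmn2 to Nmnat2 was 0.86 ± 0.26 in old and 0.07 ± 0.23 in young nerves, and that of Nmnat3 to Nmnat2 -4.99 ± 0.39 in old and -6.93 ± 0.09 in young nerves (exact permutation p = 0.1 for both).

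The other enzymes of NAD metabolism moved both ways. Of 37 listed genes 30 were tested, 7 rose, 4 fell and 19 did not pass, with a median log2 fold change of -0.0028 against -0.0008 over all tested genes. The share that passed, 36.7%, was close to the 34.6% of all genes. Naprt, which starts the route from nicotinic acid to NAD, was at 847 ± 50.3 in old and 490 ± 26.7 in young nerves (log2 fold change 0.79 ± 0.09, adjusted p = 0.00464). Parp3, an ADP-ribosyltransferase of DNA repair, was at 1419 ± 222 in old and 831 ± 29.5 in young nerves (0.76 ± 0.12). Parp1, the main NAD-consuming enzyme of DNA repair, was at 3083 ± 587 in old and 4732 ± 88.5 in young nerves (-0.64 ± 0.13), and Tnks, tankyrase, was lower by a log2 fold change of -0.47 ± 0.09. Sirt6, a nuclear NAD-dependent deacylase (-0.35 ± 0.10), and Slc25a51, the NAD carrier of mitochondria (-0.29 ± 0.09), fell as well, but when single libraries were left out both passed only without old 3. Tnks (-0.16, adjusted p = 0.133) and Slc25a51 (-0.20, adjusted p = 0.118) did not pass after removal of length and GC trends. Nadsyn1, Nmrk1, Cd38 and Sirt1, chosen here after their values were seen, had log2 fold changes of -0.05, -0.12, 0.11 and -0.0082 and did not pass. The rises numbered 4, 3, 3, 3 and 4 without old 1, old 2, young 1, young 2 and young 3.

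Among 18 tested genes listed around the control and transport of NMNAT2, SARM1 and DLK, 5 rose and 6 fell (median log2 fold change -0.12). That is 61.1% called against 34.6% of all tested genes. The list is broad, and its genes need not act on these proteins directly. Of the ubiquitin ligase that removes NMNAT2 from axons, Mycbp2 (PHR1), chosen after its values were seen, was at 15976 ± 1635 in old and 21550 ± 1065 in young nerves (log2 fold change -0.44 ± 0.10) and Fbxo45, its F-box partner, at 1569 ± 177 in old and 2295 ± 105 in young nerves (-0.55 ± 0.09). Skp1a, the adaptor of that ligase and of others, was at 45240 ± 11661 in old and 23669 ± 3192 in young nerves (0.91 ± 0.19, adjusted p = 0.0127), though after removal of length and GC trends its adjusted p was 0.0547 (log2 fold change 0.56). Kif1a, a kinesin that carries vesicles down the axon, was at 31570 ± 8051 in old and 61163 ± 2206 in young nerves (-0.98 ± 0.18), and Tsc2, a brake on mTOR signalling, had a log2 fold change of -0.58 ± 0.09. Without those trends Fbxo45 was at -0.49, Kif1a at -0.53 and Tsc2 at -0.23, all still past the threshold. The falls in the list then numbered 4 in place of 6. Whether Mycbp2, with a transcript of 15233 bases, was among the 4 is not reported here. The remaining rises were small: Sdc2 (0.50), Ticam1 (0.36), Tbcb (0.25) and Tardbp (0.21, adjusted p = 0.04995). When each of the 6 libraries was dropped in turn, Ticam1, Tbcb and Tardbp passed 1 time each and Sdc2 4 times. Without the trends Tardbp was at 0.34, and Tbcb did not pass (0.07, adjusted p = 0.502). The rises numbered 3, 2, 2, 1 and 1 without old 1, old 2, young 1, young 2 and young 3, and the falls 3 without young 2 or young 3.

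In the DLK and JNK cascade 15 of 36 genes fell, 6 rose and 15 did not pass, with a median log2 fold change of -0.19. That is 58.3% called, against 34.6% of all tested genes. After removal of length and GC trends 9 fell and 7 rose, where 24.9% of all genes passed (1974 lower and 1740 higher of 14896). Falls in the list thus still outnumbered rises, by less than before. The mixed-lineage kinase genes Map3k9, at 3569 ± 877 in old and 7270 ± 504 in young nerves (-1.05 ± 0.16), and Map3k10, at 1447 ± 384 in old and 2979 ± 129 in young nerves (-1.07 ± 0.17), fell, as did the kinase gene Tnik (-0.56 ± 0.08). With both trends taken out these 3 were at -0.67, -0.52 and -0.21, all still past the threshold. Ddit3 (CHOP), a stress transcription factor, was at 1456 ± 74.5 in old and 1015 ± 47.0 in young nerves (0.52 ± 0.08, adjusted p = 0.00566, but 0.17 with adjusted p = 0.131 once the length and GC trends were removed). Further rises were seen in Atf3, an injury-induced factor (573 ± 172 in old and 277 ± 37.8 in young nerves), Junb (log2 fold change 0.98 ± 0.31), Dusp1, a phosphatase of JNK and p38 (0.87 ± 0.22), Map3k21 (0.65 ± 0.16) and Map4k3 (0.57 ± 0.16). With each library dropped in turn, Junb and Map4k3 passed 1 time each, Atf3 2 times, Map3k21 3 times and Dusp1 4 times. Jun itself, chosen after its values were seen, did not pass (-0.23, adjusted p = 0.275). The falls numbered 9 without young 2 and 9 without young 3, and the rises 3, 2, 2 and 2 without old 1, young 1, young 2 and young 3.

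Of the other stathmin genes, Stmn4 rose to 3435 ± 319 in old nerves, against 2140 ± 87.9 in young nerves (log2 fold change 0.68 ± 0.08, adjusted p = 0.00486). Stmn1 was at -0.22 ± 0.07 (adjusted p = 0.0398), a call lost whichever library was dropped, with adjusted p from 0.0533 to 0.135, and with upper-quartile scaling (0.153). After removal of length and GC trends it was larger, at -0.63 (adjusted p = 0.00845), and Stmn4 smaller, at 0.42 (adjusted p = 0.0165). Stmn3 did not pass (0.03 ± 0.10). The axon breakdown list holds calpain, caspase and BCL2 genes and others such as Ngfr and Ulk1. It gave 5 rises and 6 falls among 31 (median -0.05). With 35.5% called, it was close to the 34.6% of all tested genes. Ngfr, the p75 neurotrophin receptor, was at 3350 ± 884 in old and 7269 ± 76.5 in young nerves (-1.15 ± 0.18), and Ulk1, a kinase of autophagy, had -0.84 ± 0.12. Bcl2l1, which encodes the survival protein BCL-XL, was at 7522 ± 1109 in old and 5003 ± 502 in young nerves (0.58 ± 0.13). Casp6 (0.44), Ubb (0.35) and Psma1 (0.25) rose too, and with each library dropped in turn passed 1, 2 and 3 times. After removal of length and GC trends Casp6 (0.04, adjusted p = 0.792) and Ubb (0.13, adjusted p = 0.280) did not pass, Psma1 turned to -0.27 (adjusted p = 0.0298), and Ulk1 was at -0.44. Among these 31 genes the rises numbered 3, 2 and 2 without young 1, young 2 and young 3 and 8 with upper-quartile scaling, and the falls 2 without young 2.

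**Figure D5:**
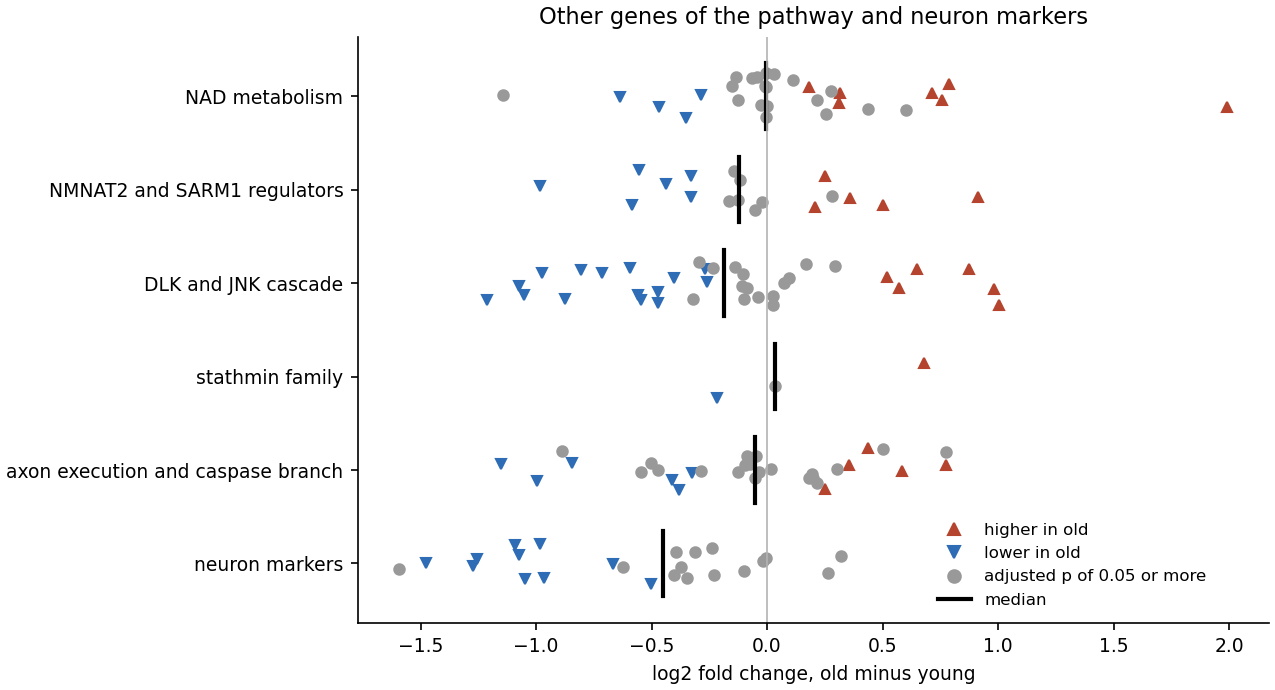
Log2 fold change, old minus young (x axis), of each tested gene in 5 lists of related genes and in the neuron markers, with red triangles for genes higher in old nerves, blue triangles for lower ones, grey points for an adjusted p of 0.05 or more and a bar at the list's median. The medians lie at -0.0028 for NAD metabolism, -0.19 for the DLK and JNK cascade and -0.45 for neuron markers.

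Fold changes ran with transcript length across all genes (Spearman correlation -0.382 over 14896 genes, which are not independent replicates), so long transcripts leaned lower in old nerves. With smooth trends in length and GC content removed from each library, all 6 genes still passed, where 24.9% of all genes did. Their log2 fold changes were then -0.90 in Sarm1, -0.67 in Nmnat2, -0.51 in Map3k12, -0.78 in Map3k13, 1.02 in Nmnat3 and 0.59 in Nampt. Stmn2 stood at -0.27 (adjusted p = 0.133).

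The genes whose log2 levels followed a member most closely over the 6 libraries were found among those with at least the median level of tested genes (926). For Sarm1 they were Mgat3, Atg9a and Fndc4 (Pearson r of 0.9995, 0.9993 and 0.9993). For Nmnat2 they were Galnt9, Cacng7 and Vwa7 (0.9998, 0.9997 and 0.9992). For Map3k12 they were Rgs7bp, Rab11fip5 and Tbc1d30 (0.9997, 0.9994 and 0.9988), and for Map3k13 Cacnb3, Gm996 and Tmem104 (0.9997, 0.9993 and 0.9992). Nmnat3 was followed most closely by Prodh, Lamtor1 and Pnisr (0.9994, 0.9957 and 0.9952) and Nampt by Suco, Ifit2 and Gpm6a (0.9973, 0.9942 and 0.9926). These values describe the 6 libraries, which fall into 2 age groups, and the gap between the groups enters each r.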

How the data were processed

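Gene-level values came from 3 old and 3 young auditory nerve libraries. The authors' deposited table holds a signal, read counts divided by 1 size factor per library. Per the submitters' processing notes, TopHat2, Partek and DESeq2 were used with mm10, while the sources used here give no versions or settings. The authors' p-value and FDR columns and the signed fold change, a score, are used as deposited, and 342 rows have no FDR. Whole reads within a tolerance of 0.1 were recovered for at least 99.931% of values above 0. They went into edgeR (4.0.16, 5414 genes called) and DESeq2 (1.42.0) as alternatives and into edgeR's filterByExpr (minimum count 10, minimum total 15), which kept 15882 genes. The main test was limma (3.58.1) with trended variances on log2(value + 1), two-sided, at an adjusted p under 0.05. The added 1 understates changes of low genes. Trends in length and GC used GENCODE M21 and mgcv (1.9.3), for 93.8% of tested genes. Only the limma step was run on simulated counts, with far fewer changed genes than passed here and no length trend. That run cannot show how the test does on data like these. The titles number the nerve samples, and libraries were taken as separate mice, since both cochleas of an animal went into 1 library. The 8 genes and all lists were chosen with earlier results of these data known. Related genes named are the 4 with the smallest p in each list and calls against its majority, and others are said to be chosen after their values were seen. A gene that this rule names in the axon breakdown list is not reported here. A change of sign between values that both miss the threshold counts as no change of call.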

Additional observations from a re-analysis of the deposited data

How the results depend on the processing

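Each of the 8 fold changes was recomputed under 18 alternatives, which gave 144 values, of which 137 kept their call and 7 lost it. Nampt lost it without young 1, young 2 or young 3, with 0.46 to 0.77 over the fits that leave out 1 library. Without both young 1 and old 2, Nampt (0.72, adjusted p = 0.0747), Nmnat2 (-0.82, 0.0643), Map3k12 (-0.65, 0.0754) and Map3k13 (-1.15, 0.0561) missed the threshold, which left 2 of the 8 genes and 1776 of all genes called. Fits that leave out 1 library called 2589 to 6117 genes. The replicate block called 2711 genes and changed no call of the 8. Same-numbered old and young libraries did not deviate together (correlations of -0.291, -0.412 and -0.0499), while old 2 and young 1 had a correlation of 0.396. Deviations from means of 3 libraries are tied to each other, so these values cannot show whether same-numbered libraries were processed together. The cause of the changes in calls was not tested. Under the replicate block the rises in NAD metabolism, regulators, cascade and axon breakdown numbered 3, 1, 2 and 1, and the falls in the first 2 lists 2 and 3. Leaving out young 1 together with old 2 gave 2, 1, 3 and 2 rises and 0, 0, 5 and 2 falls in these 4 lists. The falls in NAD metabolism numbered 2 with upper-quartile scaling and without old 1, young 1, young 2 or young 3, and the regulators' rises 3 with the length trends removed. Against the median in place of the mean of neuron markers, Map3k12 was 0.05 higher in old nerves instead of lower (-0.06).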
